A study of Ovis aries with 3 samples.

Results

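The miRNAs described here come from the miR-23a/27a/24-2 and the miR-23b/27b/24-1 clusters of the sheep left ventricle (LV). They are all entries of the deposited count tables whose name, without its species prefix, is miR-23a, miR-23b, miR-27a, miR-27b or miR-24, with any copy or arm. This rule found 14 of 636 entries, or 14 of 621 distinct entries after duplicates (identical counts, overlapping loci) had been dropped. Averaged over the libraries, 13 of the 14 reached 10 counts, as did 356 of the 621.

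Small RNA was sequenced from LV tissue of Coopworth ewes in 3 pooled libraries. HF-R, recovery from heart failure, pooled 4 ewes in which rapid pacing had been stopped. HF, heart failure, pooled 6 ewes during rapid LV pacing, and Cont pooled 4 ewes that were not paced. The paper reports that the sheep were first instrumented by thoracotomy under general anesthesia, with a pacing electrode in HF and HF-R. The labels disagree on the timing, giving 220 bpm for 13 days or 225 bpm for 14 days of pacing, and 26 days or a further 14 days of recovery. Library totals over distinct entries were 5990078 counts in HF-R, 6154795 in HF and 4711131 in Cont. Levels are given as CPM, the counts scaled to these totals, not divided by length, since 1 read spans a whole miRNA. Because each condition is 1 pool, a ratio compares libraries, its exact (Clopper-Pearson) 95% interval covers counting error only, and no p-value was computed. In whole tissue, a change in the share of a cell type and a change of the miRNA within its cells cannot be told apart.

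Each of the clusters is transcribed as 1 primary RNA, which Drosha and Dicer cut into hairpins and then into a 5p and a 3p strand. The strand kept in Argonaute pairs with mRNAs through its seed, bases 2 to 8, and represses them. The clusters are paralogs, and both make the same mature miR-24-3p. In mice, miR-23a promotes hypertrophic growth of cardiomyocytes and represses MuRF1, a muscle ubiquitin ligase. Mouse work also ties miR-27b to hypertrophy through PPARγ, and miR-24 to junctophilin-2, a protein that holds the dyad of the cardiomyocyte together, and to endothelial apoptosis after infarction. All these miRNAs are made in many cell types of the heart, including endothelium.

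The mature sequences below are those of the deposited tables, in the DNA alphabet, with the seed in capitals. They show which members can pair with the same sites, and which differ by few bases.
oar-miR-23a: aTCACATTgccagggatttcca
oar-miR-23b: aTCACATTgccagggatt
hsa-/mmu-/rno-miR-23b-3p: aTCACATTgccagggattacc
hsa-/mmu-/rno-/oar-miR-27a-3p: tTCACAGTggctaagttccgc
hsa-/mmu-/rno-miR-27b-3p: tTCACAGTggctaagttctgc
hsa-/mmu-/rno-miR-24-3p: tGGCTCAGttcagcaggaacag

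The 3 miR-23 entries shared 1 seed, the miR-27 pair another, and miR-24-3p had a seed of its own. No other distinct entry of the series carried any of these 3 seeds. From the miR-23 seed to the miR-27 seed there was 1 difference (T7G, from oar-miR-23a to miR-27a-3p, counted from the 5′ end). MiR-27a-3p and miR-27b-3p were alike over their first 18 bases and had 1 difference in 21 (C19T). The 21-nt forms of miR-23a-3p and miR-23b-3p in the tables of each library also had 1 difference (T19A). The known sheep entry oar-miR-23b is only 18 nt long, and all of these 18 bases are also the first 18 of oar-miR-23a. A read of that length fits both loci.

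On Oar v4.0, the files place the miR-23a/27a/24-2 arms within 391 nt of the plus strand of chromosome 5, at chr5:9882132-9882522. Oar-miR-23a lies at chr5:9882168-9882189 and miR-27a-3p at chr5:9882351-9882371. The miR-23b/27b/24-1 arms lie within 822 nt of the minus strand of chromosome 2, at chr2:31170661-31171482. There oar-miR-23b is at chr2:31171427-31171444, miR-23b-3p at chr2:31171424-31171444 and miR-27b-3p at chr2:31171192-31171212. MiR-24-3p was placed at chr2:31170661-31170682 in the merged table and, with the same counts, also at chr5:9882501-9882522 in the tables of each library, so its copies were not separated. In the RefSeq annotation of another sheep assembly (ARS-UI_Ramb_v3.0), MIR23B lies within AOPEP, an aminopeptidase gene, beside FANCC, and MIR23A and MIR27A lie between NANOS3 and ZSWIM4.

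By level, miR-27a-3p stood far above its neighbours. It had 294757 counts in HF-R, 376019 in HF and 204189 in Cont, or 49208, 61094 and 43342 CPM. It was the fifth most abundant of all 621 entries in each library, and held 4.92% of all counts in HF-R, 6.11% in HF and 4.33% in Cont. Oar-miR-23a had 5634 CPM in HF-R, 7115 in HF and 3531 in Cont. MiR-24-3p had 2979 CPM in HF-R, 5336 in HF and 2788 in Cont. MiR-27b-3p and oar-miR-23b, placed on chromosome 2, were lower. MiR-27b-3p had 995 CPM in HF-R, 1287 in HF and 796 in Cont. Oar-miR-23b, whose reads fit both miR-23 loci, had 432, 533 and 256 CPM in the same order. The 8 entries of 5p arms together made up only 70.8 CPM in HF-R, 93.7 in HF and 70.7 in Cont. These levels mix match classes, described further on. MiR-24-3p was counted from perfect and miR-27b-3p from partial matches, and the class of the sheep (oar) counts was not checked. By partial matches miR-24-3p had 48497 counts in HF-R, 63841 in HF and 34857 in Cont. Oar-miR-23a had 33747, 43794 and 16634 counts, so the order of these miRNAs depends on the class.

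**Figure D1:**
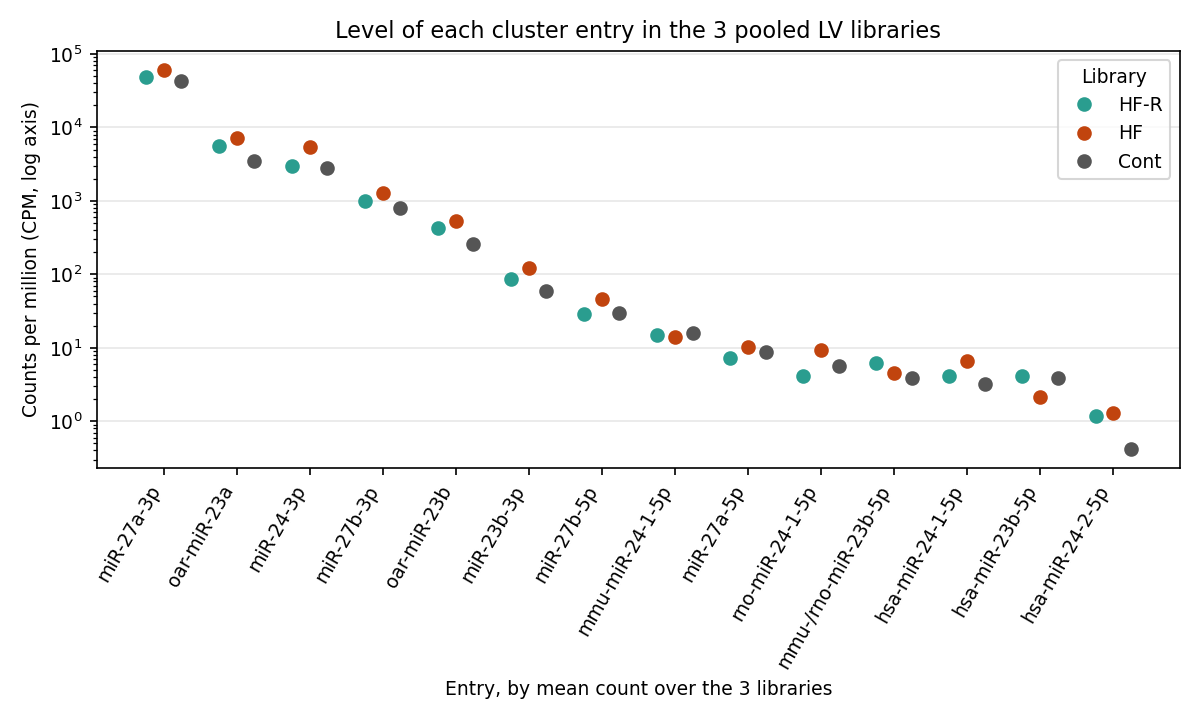
Level of the 14 entries in CPM (log axis) in the HF-R, HF and Cont libraries, 1 point per pooled library, ordered by mean count. The 6 most abundant entries are all 3p strands and are highest in HF, with miR-27a-3p at 61094 CPM in HF.

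In the failing ventricle, the abundant strands of miR-23, miR-24 and miR-27b were called higher than in control by the merged counts and main scaling. The call of the miR-24 strand was lost with partial matches, and that of the miR-27b strand with some other scalings. Calls of higher or lower needed a ratio of 1.5-fold or more in that direction, with an interval clear of 1. For HF over Cont, 8 of the 13 members with enough counts were called higher and 0 lower, while 22.8% of all 356 entries were called higher and 7.87% lower. Some members overlap: with 1 entry per locus and arm, 5 of 9 were called higher. The median ratio of the 13 members was 1.62, and that of all 356 entries 1.12.

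Oar-miR-23a had 43794 counts in HF, against 16634 in Cont, a ratio of 2.02 (95% interval 1.98 to 2.05). Oar-miR-23b had 3283 counts in HF and 1206 in Cont, a ratio of 2.08 (1.95 to 2.23). MiR-23b-3p, counted from partial matches, had 757 counts in HF and 281 in Cont, a ratio of 2.06 (1.80 to 2.37). The 3 entries with the miR-23 seed thus had like ratios. Reads of oar-miR-23b fit both miR-23 loci, so its ratio may not be independent of that of oar-miR-23a. MiR-24-3p had 32842 counts in HF and 13133 in Cont, a ratio of 1.91 (1.88 to 1.95). MiR-27b-3p, also counted from partial matches, had 7923 counts in HF and 3750 in Cont, a ratio of 1.62 (1.56 to 1.68). MiR-27a-3p, the most abundant, had a ratio of 1.41 (1.40 to 1.42) and stayed under the threshold of 1.5. By partial matches miR-24-3p had a ratio of 1.40 (1.38 to 1.42), close to that of miR-27a-3p, and was not called. The contrast of miR-24-3p with miR-27a-3p thus depends on the match class.

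These ratios depend on the scaling. The TMM factors of edgeR shifted every HF over Cont ratio by -0.35 on the log2 scale, and the size factors of DESeq2 by -0.22. With TMM, oar-miR-23a had a ratio of 1.58, oar-miR-23b of 1.63, miR-23b-3p of 1.62 and miR-24-3p of 1.501, which all kept their call. MiR-27b-3p, at 1.27 with TMM, lost its call, as did miR-27b-5p, hsa-miR-24-1-5p and rno-miR-24-1-5p. Over all 356 entries, 81 were called higher and 28 lower in the main scaling, against 42 higher and 74 lower with TMM, 52 higher and 53 lower with DESeq2, and 160 higher and 6 lower with raw counts. Of the members, 4 were called higher and 1 lower with TMM (hsa-miR-23b-5p), and 4 higher and 0 lower with DESeq2.

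**Figure D2:**
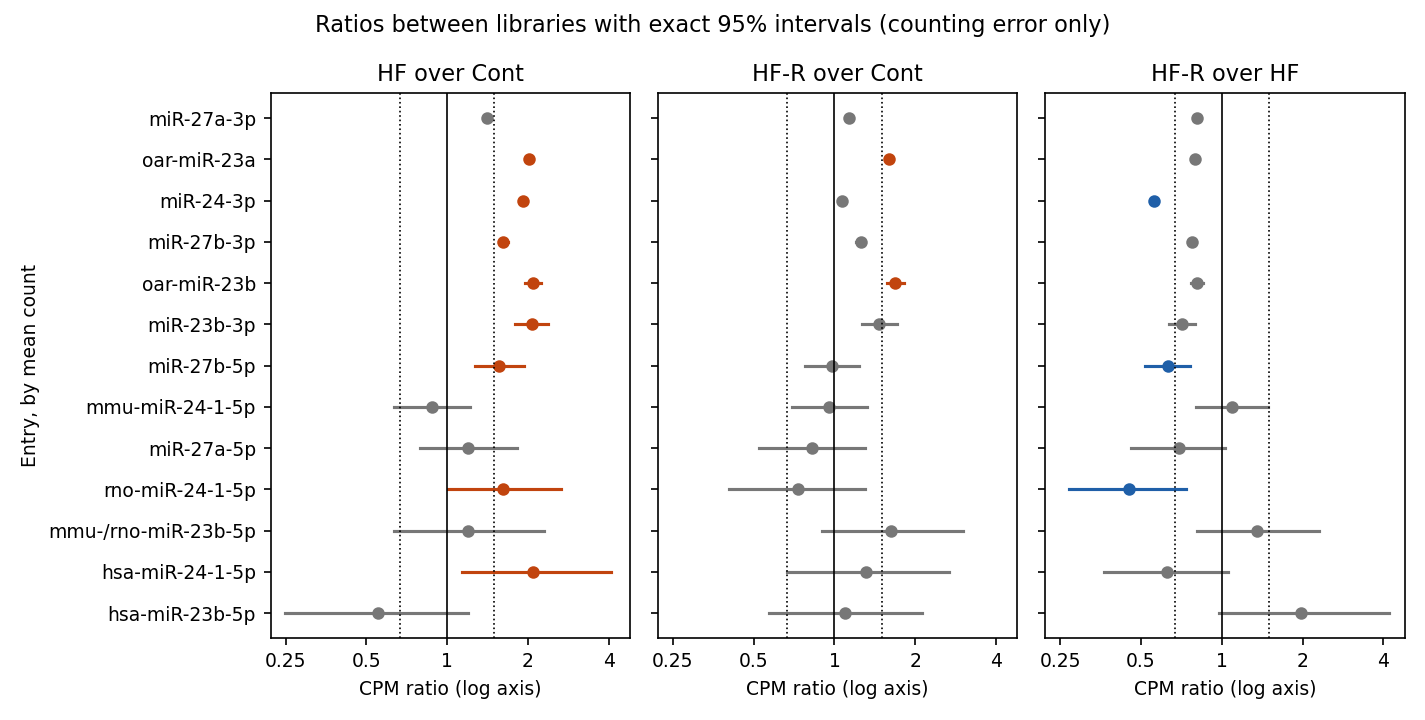
CPM ratio (log axis) of the 13 entries past the minimum of 10 counts, for HF over Cont, HF-R over Cont and HF-R over HF. Bars are exact 95% intervals for counting error, dotted lines the 1.5-fold thresholds in either direction, red points the entries called higher and blue points those called lower. MiR-24-3p is called higher in HF over Cont (1.91) and lower in HF-R over HF (0.56), and oar-miR-23a is called higher in both ratios over Cont (2.02 and 1.60).

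After recovery, the miR-23 entries were above control while miR-24-3p lay near it. For HF-R over Cont, 2 of 13 members were called higher and 0 lower, beside 4.78% of all entries called higher and 11.2% lower. Both that were called carry the miR-23 seed. Oar-miR-23a had 33747 counts in HF-R and 16634 in Cont, a ratio of 1.60 (1.57 to 1.63). Oar-miR-23b had 2586 counts in HF-R and 1206 in Cont, a ratio of 1.69 (1.57 to 1.81). MiR-23b-3p, with 525 counts in HF-R and 281 in Cont, had a ratio of 1.47 (1.27 to 1.70), just under the threshold. MiR-27b-3p, with 5960 counts in HF-R and 3750 in Cont, had a ratio of 1.25 (1.1998 to 1.30), and miR-27a-3p of 1.14 (1.13 to 1.14). MiR-24-3p, with 17847 counts in HF-R and 13133 in Cont, had a ratio of 1.07 (1.04 to 1.09). The median was 1.14 for the 13 members and 0.98 for all entries. Over all entries, 17 were called higher and 40 lower, against 28 higher and 25 lower when miR-1-3p, the main miRNA of heart muscle, was left out of the totals, and 71 higher and 10 lower with raw counts. Scaled to the totals of the perfect-match tables, the ratio of oar-miR-23a was 1.49 and its call was lost.

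For HF-R over HF, 0 members were called higher and 3 lower, beside 5.06% of all entries called higher and 23.3% lower. A share of 3 in 13 is close to that background. MiR-24-3p was lowest among the abundant members, with 17847 counts in HF-R and 32842 in HF and a ratio of 0.56 (0.55 to 0.57). The other 5 abundant 3p entries lay between 0.71 and 0.81, and none was called. For all 356 entries the median was 0.82, close to the values of these 5. With TMM, miR-24-3p had a ratio of 0.71 and was not called, and miR-27a-3p (1.03), oar-miR-23a (1.01) and oar-miR-23b (1.03) lay just above 1. The balance of member calls turned with the scaling. With TMM, 2 members were called higher (both forms of miR-23b-5p) and 1 lower (rno-miR-24-1-5p), and with DESeq2 1 higher (hsa-miR-23b-5p) and 1 lower (rno-miR-24-1-5p). Over all entries, 18 were called higher and 83 lower, against 58 higher and 33 lower with TMM, 44 higher and 41 lower with DESeq2, and 25 higher and 52 lower without miR-1-3p. The comparisons share libraries: HF stands in the first and the third, and Cont in the first and the second.

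Ratios between members within 1 library do not depend on the scaling. MiR-24-3p made up 34.6% of the sum of oar-miR-23a and miR-24-3p in HF-R (Clopper-Pearson 95% interval 34.2 to 35.004%), 42.9% in HF (42.5 to 43.2%) and 44.1% in Cont (43.6 to 44.7%). By these counts HF and Cont were close, and HF-R stood apart. The miR-24-3p counts are of perfect matches, while the match class of the oar-miR-23a counts could not be checked. Relative to oar-miR-23a, the change of miR-24-3p was 0.67 (0.65 to 0.69) for HF-R over Cont and 0.95 (0.92 to 0.98) for HF over Cont, with intervals from the counting error of the 4 counts. This pattern turned with the match class, described further on. With the partial-match counts of miR-24-3p, chosen after the data were seen, the same change was 0.69 (0.67 to 0.70) for HF-R over Cont and 0.70 (0.68 to 0.71) for HF over Cont, so that HF-R and HF lay together and Cont stood apart. Oar-miR-23a and miR-27a-3p, which come from 1 transcript, also differed. Oar-miR-23a was 10.3% of their sum in HF-R (10.2 to 10.4%), 10.4% in HF (10.3 to 10.5%) and 7.53% in Cont (7.42 to 7.64%). Here HF-R and HF lay together and Cont was lower. The sheep miR-23 entries differed less, but reads of oar-miR-23b fit both loci, so this share may not compare the loci. Oar-miR-23b was 7.12% of both miR-23 entries in HF-R (6.86 to 7.39%), 6.97% in HF (6.75 to 7.21%) and 6.76% in Cont (6.40 to 7.14%), with overlapping intervals.

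**Figure D3:**
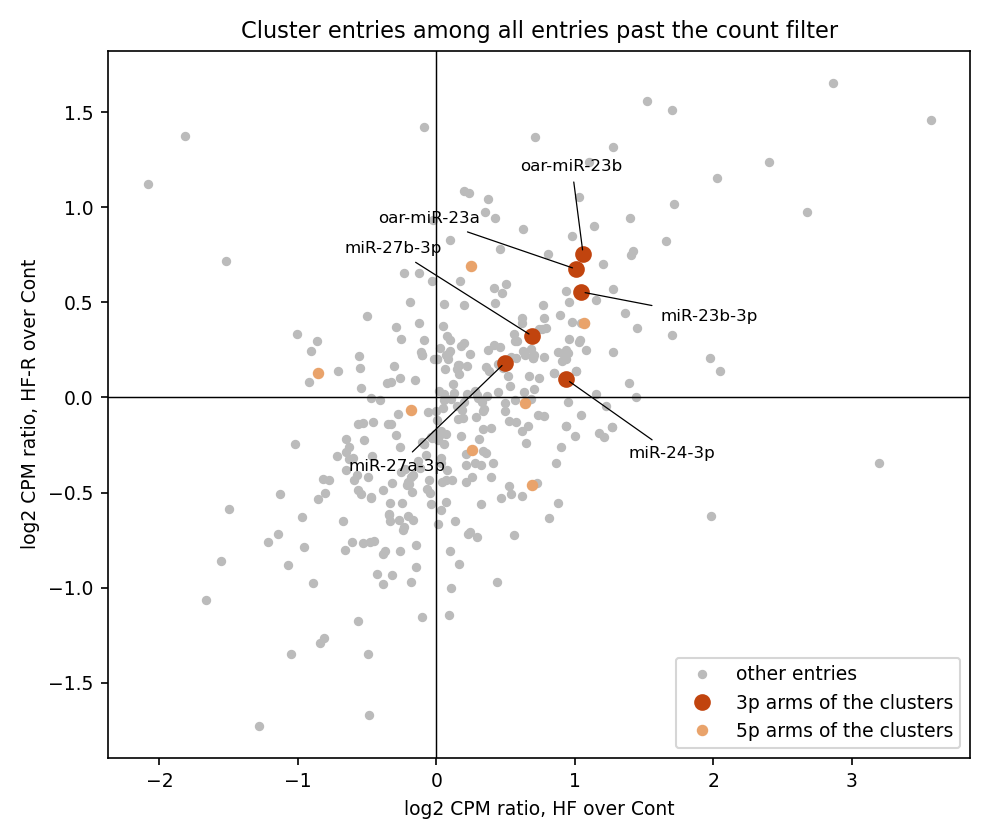
Log2 CPM ratio of HF over Cont (x axis) against HF-R over Cont (y axis) for the 356 entries past the minimum of 10 counts. Red points are the 3p strands of the clusters, orange points their 5p strands and grey points all others, and both axes share the Cont library. The miR-23 entries lie in the upper right (oar-miR-23a at 1.01 and 0.67), and miR-24-3p lies at 0.94 and 0.10.

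Perfect and partial matches gave different answers for miR-24-3p. For each library, perfect matches are reads scored as a full match to the mature miRNA, and partial matches those scored as fitting it to 70 to 99%. Some partial sequences hold the whole miRNA, as described below. Perfect matches gave the 17847, 32842 and 13133 counts of HF-R, HF and Cont used above. Partial matches were more numerous, with 48497 counts in HF-R, 63841 in HF and 34857 in Cont. By partial matches the ratio was 1.40 (1.38 to 1.42) for HF over Cont and 0.78 (0.77 to 0.79) for HF-R over HF, so that neither was called. The ratio for HF-R over Cont was 1.09 (1.08 to 1.11), close to the perfect-match value. Perfect matches were 26.9% of both classes in HF-R (26.6 to 27.2%), 33.97% in HF (33.7 to 34.3%) and 27.4% in Cont (26.97 to 27.8%). HF held the larger share of perfect matches. This use of partial counts was chosen after the data were seen.

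**Figure D4:**
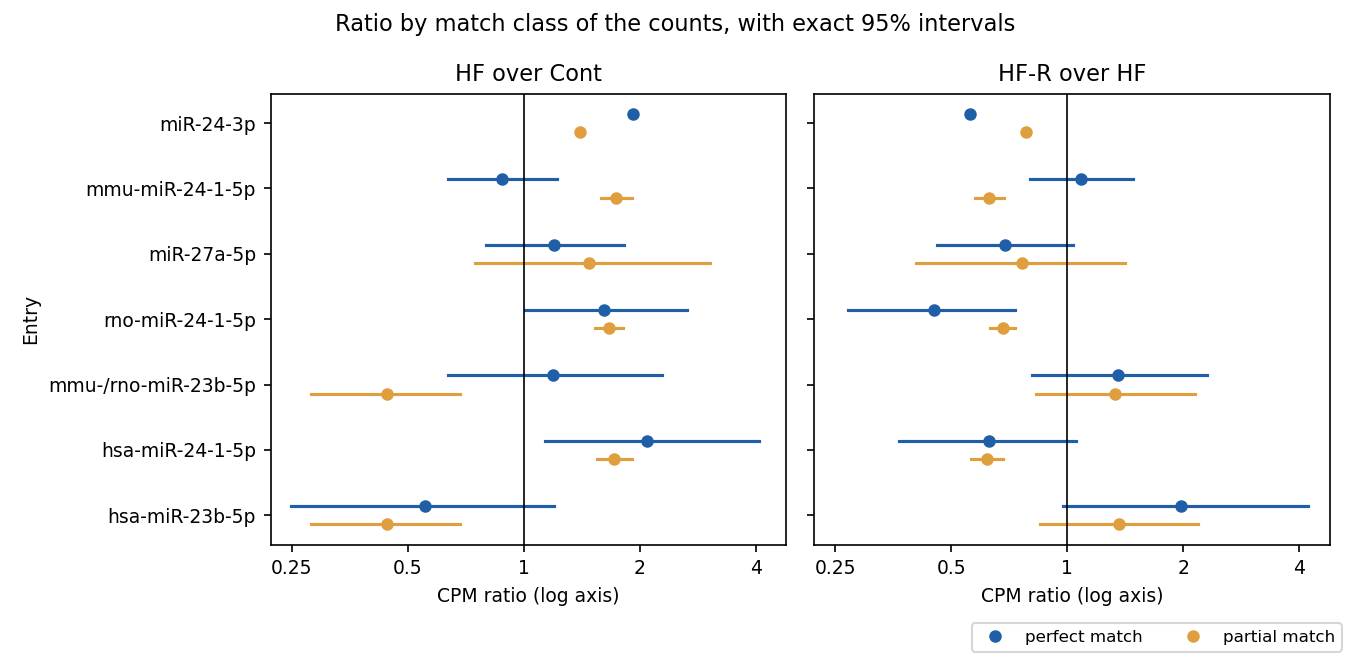
CPM ratio (log axis) of 7 entries for HF over Cont and HF-R over HF, from perfect (blue) and partial (orange) matches, with exact 95% intervals. MiR-24-3p is at 1.91 by perfect and 1.40 by partial matches for HF over Cont. MiR-27b-5p, with both classes, is not drawn. It had 1.56 by perfect and 1.62 by partial matches for HF over Cont, and 0.63 and 0.74 for HF-R over HF.

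MiR-27b-3p and miR-23b-3p were counted from partial matches only. The perfect-match tables list no count for them in any library. The partial tables list the different read sequences behind each count, without a count per sequence: 390 in HF-R, 394 in HF and 293 in Cont for miR-27b-3p, and 102, 115 and 55 for miR-23b-3p. None of these sequences held, or lay within, the mature miRNA. For miR-24-3p, 45 of 1029 sequences in HF-R, 39 of 1172 in HF (a list that overflowed its cell and was rejoined) and 33 of 839 in Cont held the whole mature miRNA with added bases. Most of the sequences carried the base of the b paralogs. They had already been assigned to these paralogs, which may fix this base, so the shares do not show where the reads came from. At position 19, 99.2% of the miR-27b-3p sequences in HF-R, 98.7% in HF and 99.0% in Cont had the T of miR-27b, and 0, 0 and 1 had the C of miR-27a. Likewise 98.0% of the miR-23b-3p sequences in HF-R, 96.5% in HF and 96.4% in Cont had the A of miR-23b.

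The differences from the mature miRNA sat elsewhere. Somewhere in the seed, 75.4% of the miR-27b-3p sequences in HF-R, 74.9% in HF and 75.4% in Cont differed. The same share was 50, 54.8 and 43.6% for miR-23b-3p, and 35.5, 37.3 and 34.1% for miR-24-3p. Position 8, the last base of the seed, differed in 52.3% of the miR-27b-3p sequences in HF-R, 52.0% in HF and 54.3% in Cont. For miR-23b-3p it differed in 40.2, 41.7 and 41.8% of sequences, but for miR-24-3p in only 3.30, 3.33 and 2.98%. The change T8A (position from the 5′ end of the mature miRNA) alone was in 40.8% of miR-27b-3p sequences in HF-R, 38.1% in HF and 41.0% in Cont. Positions 11 and 12 of miR-27b-3p differed in 0 sequences of any library. The first 18 bases shared by the miR-27 pair were in 0 of 40379 partial-match sequences in HF-R, 0 of 41507 in HF and 0 of 33773 in Cont, and the first 18 of miR-23 were in 0 as well. Those of miR-24-3p were in 215, 205 and 167. The 3 libraries had like profiles along the miRNA. Counts of miR-27b-3p and miR-23b-3p in these tables are therefore counts of reads that do not hold these shared 18 bases intact. The same limit holds for the share of miR-27b-3p in both miR-27 entries (1.98% in HF-R, 2.06% in HF and 1.80% in Cont). Tables of reads for the sheep (oar) entries were not used here. The reads behind oar-miR-23a, oar-miR-23b and miR-27a-3p, and thus the match class of their counts, were not examined.

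**Figure D5:**
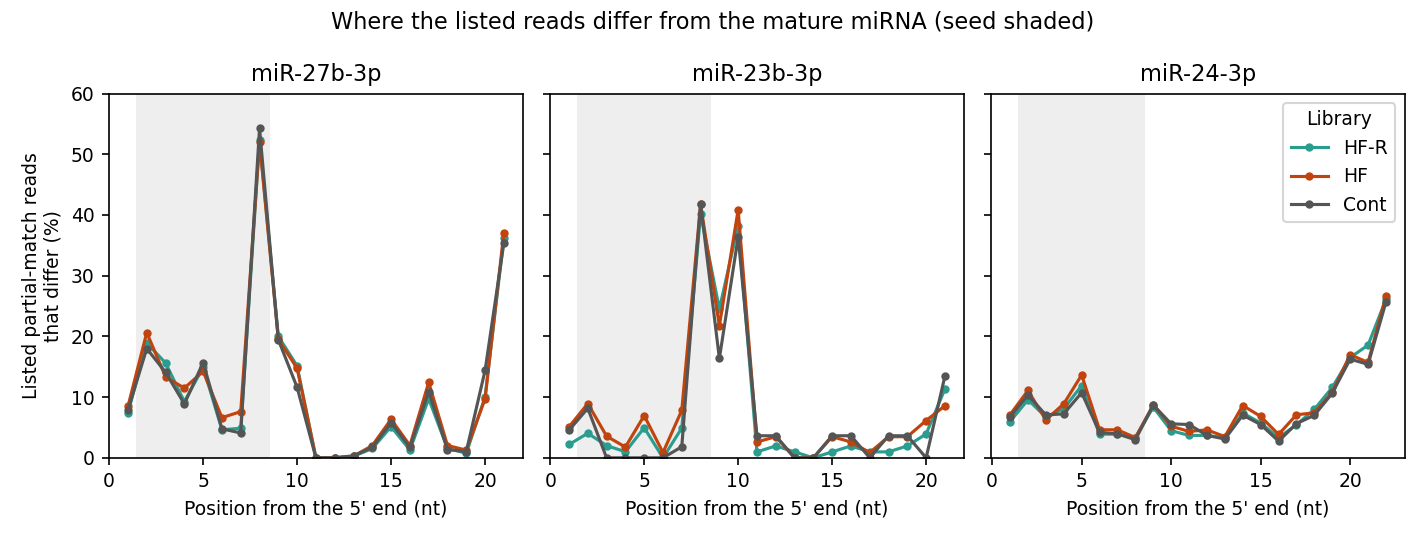
Share of listed partial-match read sequences (y axis, percent) that differ from the mature miRNA at each position from its 5′ end (x axis, nt), for miR-27b-3p, miR-23b-3p and miR-24-3p in the HF-R, HF and Cont libraries, with the seed shaded. The 3 libraries overlap, and position 8 stands out for miR-27b-3p (52.0% in HF) and miR-23b-3p (41.7% in HF), not for miR-24-3p (3.33% in HF).

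The 5p strands were rare, and their sequences are shown because several differ only in their ends, which moves the seed.
hsa-/mmu-/rno-miR-27a-5p: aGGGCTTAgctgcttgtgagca
hsa-/mmu-/rno-miR-27b-5p: aGAGCTTAgctgattggtgaac
hsa-miR-23b-5p: tGGGTTCCtggcatgctgattt
mmu-/rno-miR-23b-5p: gGGTTCCTggcatgctgattt
hsa-miR-24-1-5p: tGCCTACTgagctgatatcagt
mmu-miR-24-1-5p: gTGCCTACtgagctgatatcagt
rno-miR-24-1-5p: gTGCCTACtgagctgatatcag
hsa-miR-24-2-5p: tGCCTACTgagctgaaacacag

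MiR-27b-5p was the most abundant 5p strand, with 172 counts in HF-R, 281 in HF and 138 in Cont. Its ratio was 1.56 (1.27 to 1.92) for HF over Cont, called higher, and 0.63 (0.52 to 0.76) for HF-R over HF, called lower. MiR-27a-5p had only 43 counts in HF-R, 64 in HF and 41 in Cont, and none of its ratios was called. MiR-27b-5p was 80.0% of both 5p strands in HF-R (74.0 to 85.1%), 81.4% in HF (76.9 to 85.4%) and 77.1% in Cont (70.2 to 83.0%). These are perfect matches for both, while at the 3p arm miR-27b was counted by partial matches only and miR-27a held most counts. The 5p arm was 0.0146% of both miR-27a arms in HF-R (0.0106 to 0.0196%), 0.0170% in HF (0.0131 to 0.0217%) and 0.0201% in Cont (0.0144 to 0.0272%). For miR-27b, counted by partial matches in both arms, it was 3.96% in HF-R (3.49 to 4.48%), 4.11% in HF (3.70 to 4.57%) and 4.12% in Cont (3.52 to 4.79%). Intervals overlapped between libraries in both cases. The match class of the miR-27a-3p counts could not be checked, so the miR-27a share may mix classes and may not compare with that of miR-27b.

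Among the members with partial matches, miR-23b-5p was the only arm with fewer partial-match counts in HF than in Cont, 34 against 59, while HF-R had 45 for its longer form (hsa). That ratio was 0.44 (0.28 to 0.68). By perfect matches the longer form had 25 counts in HF-R, 13 in HF and 18 in Cont, and a ratio of 0.55 (0.25 to 1.19) for HF over Cont. Its shorter form (mmu/rno), which lacks the first base, had 37 counts in HF-R, 28 in HF and 18 in Cont, and a ratio of 1.19 (0.64 to 2.29). Both intervals include 1, so a difference was not detectable by perfect matches at this depth. Together, the perfect matches of both forms were 2.34% of the sum of miR-23b-5p and oar-miR-23b in HF-R (1.80 to 2.99%), 1.23% in HF (0.89 to 1.67%) and 2.90% in Cont (2.04 to 3.99%). HF was below HF-R and Cont in this share, whose oar-miR-23b counts may include reads of miR-23a. The match class of the oar-miR-23b counts could not be checked, so the share may mix classes.

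For miR-24, the 5p arm tells the loci apart, since miR-24-1-5p comes from chromosome 2 and miR-24-2-5p from chromosome 5. Perfect matches of hsa-miR-24-2-5p were under the filter, with 7 counts in HF-R, 8 in HF and 2 in Cont. The 3 forms of miR-24-1-5p had 25 (hsa), 90 (mmu) and 25 (rno) counts in HF-R, 41, 85 and 57 in HF, and 15, 74 and 27 in Cont. MiR-24-2-5p was 4.76% of these 5p counts in HF-R (1.94 to 9.57%), 4.19% in HF (1.83 to 8.09%) and 1.69% in Cont (0.21 to 5.99%), with overlapping intervals. Partial matches placed it much higher, at 1011 counts in HF-R, 1339 in HF and 662 in Cont, beside 693, 1148 and 512 for hsa-miR-24-1-5p. However, 86 of its 151 listed sequences in HF-R, 100 of 157 in HF and 72 of 112 in Cont were also listed for rno-miR-24-1-5p, or 57.0, 63.7 and 64.3% of its own list and 53.1, 49.0 and 56.2% of the other. The partial counts of both loci therefore share reads.

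The forms of miR-24-1-5p differed in their ratios. For HF over Cont, hsa-miR-24-1-5p had 2.09 (1.13 to 4.07) and rno-miR-24-1-5p 1.62 (1.01 to 2.66), both called higher, while mmu-miR-24-1-5p had 0.88 (0.64 to 1.22). The mmu form, the longest, was 64.3% of the 3 forms in HF-R (55.8 to 72.2%), 46.4% in HF (39.1 to 54.0%) and 63.8% in Cont (54.4 to 72.5%). HF stood below both others, with intervals that did not overlap. By partial matches all 3 forms were higher in HF than in Cont, with ratios between 1.66 and 1.74. For HF-R over HF, rno-miR-24-1-5p had a ratio of 0.45 (0.27 to 0.73) and was called lower.

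Likeness to other miRNAs was measured as the distance in the log2 ratios of HF over Cont and HF-R over Cont, among 185 entries outside the clusters that averaged 100 counts or more. Nearest to oar-miR-23a were miR-140-5p (distance 0.18), miR-361-5p (0.21) and oar-miR-29b (0.28). Next to miR-27a-3p were miR-208b-3p, a miRNA of the slow myosin gene (0.03), hsa-miR-98-5p (0.05) and rno-miR-3586-5p (0.05), and next to miR-27b-3p miR-421 (0.06), oar-miR-16b (0.07) and miR-1839-5p (0.10). MiR-24-3p lay nearest to miR-17-5p and hsa-miR-106a-5p, which have the same counts (0.08), and miR-542-3p (0.09). The counts of miR-17-5p, hsa-miR-106a-5p and rno-miR-3586-5p are of partial matches. The entry oar-miR-17-5p, labelled a perfect match, had ratios of 1.61 for HF over Cont and 0.996 for HF-R over Cont. The match class of its counts was not checked. Each likeness rests on 2 ratios from 3 libraries that share Cont.

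A list of miRNAs tied to hypertrophy and remodelling, among them miR-21, miR-29, miR-133, miR-208 and miR-221, gave 47 entries with enough counts. For HF over Cont, 7 of the 47 (14.9%) were called higher and 0 lower, with a median ratio of 1.24, beside 22.8% of all 356 entries called higher and 7.87% lower. For HF-R over Cont, 7 (14.9%) were called higher and 7 lower, with a median of 1.11, beside 4.78% of all entries higher and 11.2% lower. For HF-R over HF, 3 (6.38%) were called higher and 10 (21.3%) lower, with a median of 0.78, beside 5.06 and 23.3% of all entries. In HF over Cont the 13 members of the clusters had the larger median, 1.62. Oar-miR-21, a miRNA of fibrosis and injury, had ratios of 1.29 for HF over Cont and 2.06 for HF-R over Cont.

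Cell type markers were summed over whole lists. The 7 cardiomyocyte miRNAs, all found, summed to 388546 CPM in HF-R, 319778 in HF and 323617 in Cont, the highest of the lists. The fibroblast miRNAs, 3 of 3 found, summed to 1768 CPM in HF-R, 1616 in HF and 1267 in Cont, a ratio of 1.28 for HF over Cont and 1.40 for HF-R over Cont. Leukocyte miRNAs, 4 of 4 found, summed to 488 CPM in HF-R, 454 in HF and 565 in Cont. Erythroid miRNAs, 3 of 4 found, summed to 2899 CPM in HF-R, 3446 in HF and 3473 in Cont, and those of smooth muscle, 2 of 2 found, to 89129, 83643 and 102109 CPM in the same order. Markers of other tissues, 3 of 4 found, summed to between 43.9 and 98.6 CPM. The endothelial marker miR-126 was looked for but had no entry among those used here. The share of endothelium, which also makes these clusters, thus has no marker. The part of cell makeup in the results above was not tested.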

How the data were processed

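Small RNA from 3 pooled LV libraries (HF-R, HF and Cont) was sequenced on an Illumina NextSeq. The authors kept reads of 15 to 30 nt, aligned them to miRBase v21 with Blast, mapped them to Oar v4.0 with Bowtie (versions not given in the sources used here) and deposited raw counts of reads per miRNA entry, without scaling between libraries. Tables of each library give the deposited counts of perfect and partial (70 to 99%) matches with their listed reads. A blank was taken as 0, with a floor of 3 counts.

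Both merged tables (102 and 534 entries) were joined, and 15 duplicates with identical counts and overlapping loci were removed. Ratios are of CPM, with exact 95% intervals. Listed reads were placed without gaps, over at least 15 nt. Named miRNAs are all members, the 3 nearest entries outside the clusters for each of 4 members, and members of the lists. Alternatives were edgeR 4.0.16 TMM, DESeq2 1.42.0 size factors, other totals, thresholds of 1.2 and 2, other count minimums and the counts by match class. No p-value between conditions was computed. The members and lists were chosen with earlier results of these data known. The code was tested on simulated data. R 4.3.3, matplotlib 3.10.9, scipy 1.17.1, numpy 2.4.6 and Python 3.11.15 were used. Further sheets of the merged tables were not used.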

Additional observations from a re-analysis of the deposited data

Results flagged for a closer look

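Some perfect-match counts of the clusters stood only in the tables of each library and entered no comparison. MiR-23a-5p, the 5p strand of miR-23a at chr5:9882132-9882153, had 4 perfect-match counts in HF-R and 2 in HF, and no listed count in Cont, where a count of 0 allows up to 3 counts. It was the HF-R value, 0.668 CPM, that lay above the 0.637 CPM of that limit. By partial matches it had 2 counts in each library.

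A 24-nt form of rno-miR-27b-5p, at chr2:31171231-31171254, had 29 perfect-match counts in HF-R, 56 in HF and 22 in Cont. Its ratio was 1.95 (1.17 to 3.35) for HF over Cont, 1.04 (0.58 to 1.89) for HF-R over Cont and 0.53 (0.33 to 0.85) for HF-R over HF. It holds the 22-nt miRNA with added bases at its 3′ end.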

How the results depend on the processing

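No paired analysis was possible because each condition has 1 pooled library. For HF over Cont, 8 members called became 5 with TMM, 4 with DESeq2 size factors, 4 at a threshold of 2 and 5 with 1 entry per locus and arm. For HF-R over Cont, 2 became 1 with the perfect-match totals, 5 with raw counts, 4 at a threshold of 1.2 and 0 at a threshold of 2. For HF-R over HF, 3 became 5 with the perfect-match totals, 8 at 1.2 and 1 at 2, and the 3, all lower, became 2 higher and 1 lower with TMM and 1 of each with DESeq2. The alternative of perfect-match counts could give no other value and was not run: for 9 of the 14 members these are the merged counts, and 5 have none. Of 8 tested members with both match classes, 4 called higher for HF over Cont became 7 with summed classes (5 higher, 2 lower). With partial counts, these 4 became 6 (4 higher, 2 lower), and 0 for HF-R over Cont became 2 (both lower). Summed and partial counts were both chosen after seeing the data. The summed CPM of the 14 members had ratios of 1.49, 1.17 and 0.79 for HF over Cont, HF-R over Cont and HF-R over HF. For HF over Cont it was 1.17 with TMM, 1.27 with DESeq2, 1.46 without miR-1-3p, 1.53 without the members in the total, 1.94 with raw counts, 1.48 with all entries kept and 1.93 without miR-27a-3p. For HF-R over Cont it was 1.22 with DESeq2, 1.27 without miR-1-3p, 1.18 without the members, 1.09 with the perfect-match totals, 1.49 with raw counts, 1.18 with all entries and 1.36 without miR-27a-3p. For HF-R over HF it was 1.00 with TMM, 0.955 with DESeq2, 0.872 without miR-1-3p, 0.772 without the members, 0.736 with the perfect-match totals, 0.765 with raw counts, 0.801 with all entries and 0.704 without miR-27a-3p. Of 351 values of single members under the alternatives, 256 stayed within their 95% interval, 95 moved out of it and 0 called values changed direction. The causes were not tested. Depth limits the 5p strands, whose intervals mostly include 1.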
